A study of Mus musculus with 16 samples.

Results

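Expression of 10 immediate early genes was followed across sorted cells of the mouse olfactory mucosa. The genes were Fos, Fosb, Fosl2, Jun, Junb, Egr1, Nr4a1, Dusp1, Btg2 and Atf3, taken by name from the array's annotation, and all 10 were among the 19505 genes measured. The mice carried an S100a5-tauGFP reporter on a C57BL/6 background, were of both sexes and were 7 to 12 weeks old. All 24 mice were kept singly in clean air for 40 h, and from hour 26 they received 10 s pulses of either bourgeonal, a floral aldehyde, or filtered air as the vehicle every 20 min. The dissociated mucosa was sorted by fluorescence in pools of 3 mice, which gave 4 odor pools and 4 vehicle pools, each with 2 libraries on Clariom S arrays. The 4 groups were odor titled GFP-, odor titled GFP+, vehicle titled GFP- and vehicle titled GFP+, with 4 libraries each.

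Immediate early genes are switched on within minutes of a stimulus, without new protein synthesis, through kinase cascades that act on factors such as CREB and SRF. Their products are mostly transcription factors, joined by feedback regulators that damp the same cascades. In neurons they are used as marks of recent firing, and they are also switched on by growth factors, by stress and by tissue dissociation. S100a5, which codes for a protein that binds calcium, is known to be expressed more in olfactory neurons that have been active, so its reporter was meant to label them.

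The title and the cell type field of every sample name opposite gates, and the groups here follow the titles. A gate difference is the log2 level in the library titled GFP- minus that in the library titled GFP+ of the same pool. S100a5 itself had gate differences of 1.07, 1.00, 0.85 and 1.46 in the odor pools, against 0.85, 0.65, 1.17 and 1.14 in the vehicle pools. The library titled GFP- was therefore the one with more RNA of the reporter's own gene in 8 of 8 pools, which goes against the titles. Omp, which marks mature olfactory neurons, lay between 18.63 and 18.97 in all 16 libraries, near the highest values on the arrays, 19.38 to 19.59. The libraries correlated at 0.9895 to 0.9944 within groups. Arrays have no read depth, and the number of pools limits the precision: p-values measure the spread between these pools.

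Control by CREB can be looked for in promoter sequence, so the 250 bases before the RefSeq start of each gene (GRCm38.p6) were searched. Of the 10 genes, 9 were searched, and Egr1 was not. The core of the cAMP response element, TGACG on either strand, was present in 7 of these 9 promoters (77.8%), against 17.8% of 32851 mouse promoters of that length. The 32851 were not matched to these 9 for base composition, and the cause of this contrast was not tested. Nr4a1 had 4 copies, Dusp1 3, Fos and Btg2 2 each, and Fosb, Junb and Atf3 1 each. Fosl2 and Jun had 0 in this window. The full palindrome TGACGTCA, in which 2 cores overlap, was found in Btg2 and Dusp1 and in 1.55% of all promoters. The AP-1 site TGANTCA, held by 6.75% of promoters, and the CArG box of SRF, held by 1.47%, were found in 0 of the 9. Sites outside these 250 bases were not searched, so this count does not show that the genes lack them. Only exact matches were counted, and they describe letters and not binding. The Jun window holds tgacatca, which differs from the palindrome at 1 letter and was not counted. The sequences below are the 4 promoters with the most cores and, as the contrast without an exact core, Jun. Each is read 5′ to 3′ along the gene's own strand in lower case, and capitals mark the cores and the palindromes, with CGTCA standing for the core on the opposite strand.
Fos, chr12:85473640-85473889, plus strand: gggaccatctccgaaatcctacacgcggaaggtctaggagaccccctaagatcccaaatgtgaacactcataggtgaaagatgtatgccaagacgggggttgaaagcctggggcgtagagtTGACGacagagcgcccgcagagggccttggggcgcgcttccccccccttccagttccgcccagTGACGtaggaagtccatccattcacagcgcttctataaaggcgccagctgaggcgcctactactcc
Nr4a1, chr15:101266596-101266845, plus strand: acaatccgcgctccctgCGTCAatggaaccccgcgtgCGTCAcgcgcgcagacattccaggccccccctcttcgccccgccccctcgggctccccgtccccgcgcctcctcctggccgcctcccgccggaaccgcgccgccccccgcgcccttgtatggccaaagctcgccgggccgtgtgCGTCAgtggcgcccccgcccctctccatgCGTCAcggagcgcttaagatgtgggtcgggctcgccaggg
Btg2, chr1:134079156-134079405, minus strand: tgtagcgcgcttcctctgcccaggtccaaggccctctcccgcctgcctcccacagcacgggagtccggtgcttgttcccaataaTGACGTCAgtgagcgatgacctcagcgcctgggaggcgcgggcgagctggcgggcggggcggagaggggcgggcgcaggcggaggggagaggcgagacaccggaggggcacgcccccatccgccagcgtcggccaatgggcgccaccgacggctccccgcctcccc
Dusp1, chr17:26508473-26508722, minus strand: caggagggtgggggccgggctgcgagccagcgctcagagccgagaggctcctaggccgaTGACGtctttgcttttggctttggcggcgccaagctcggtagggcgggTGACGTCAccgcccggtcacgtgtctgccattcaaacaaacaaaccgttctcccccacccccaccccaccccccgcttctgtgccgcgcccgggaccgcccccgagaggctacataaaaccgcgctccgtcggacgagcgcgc
Jun, chr4:95052223-95052472, minus strand: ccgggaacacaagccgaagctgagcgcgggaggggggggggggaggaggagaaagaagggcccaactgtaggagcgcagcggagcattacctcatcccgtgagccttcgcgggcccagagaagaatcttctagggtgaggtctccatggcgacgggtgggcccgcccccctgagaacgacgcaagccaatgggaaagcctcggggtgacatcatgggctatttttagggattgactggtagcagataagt
Counted from the base before the start, the Fos cores began at -129 and -66. The Nr4a1 cores began at -233, -213, -69 and -40. In Btg2 the palindrome spanned the cores at -166 and -163, and in Dusp1 those at -143 and -140, with a further core at -191.

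All 10 genes had a lower mean in the libraries titled GFP-, the side on which S100a5 was higher. In the odor pools 10 of 10 passed the test in that direction, against 10.2% of all genes, and in the vehicle pools 9 of 10 passed, against 9.95% of all genes (limma, adjusted p under 0.05 over 19505 genes). The 10 genes were chosen with earlier results of these data known, so these counts are a description and no independent test of that direction. Higher levels in libraries titled GFP- passed for 7.82% of all genes in odor pools and 6.23% in vehicle pools. The median gate difference of the 10 genes was -2.78 in the odor pools, where the median of all genes was 0.105 (-2.77 with Fosl2 at the bound given below). In the vehicle pools it was -2.76, where the median of all genes was 0.086. Each of the 10 genes had a gate difference below 0 in 8 of 8 pools. Of all genes, 36.1% had a fitted gate difference below 0 in odor pools and 37.9% in vehicle pools. The share of all genes below 0 in all 8 pools was not computed. In odor pools 9 of the 10 had all 4 libraries titled GFP- below all 4 titled GFP+, as had 10.1% of all genes, and in vehicle pools 9 of the 10, as had 10.2%. In sorted material, fewer cells of a type and less RNA per cell cannot be told apart. The values per library are given below by family.

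**Figure D1:**
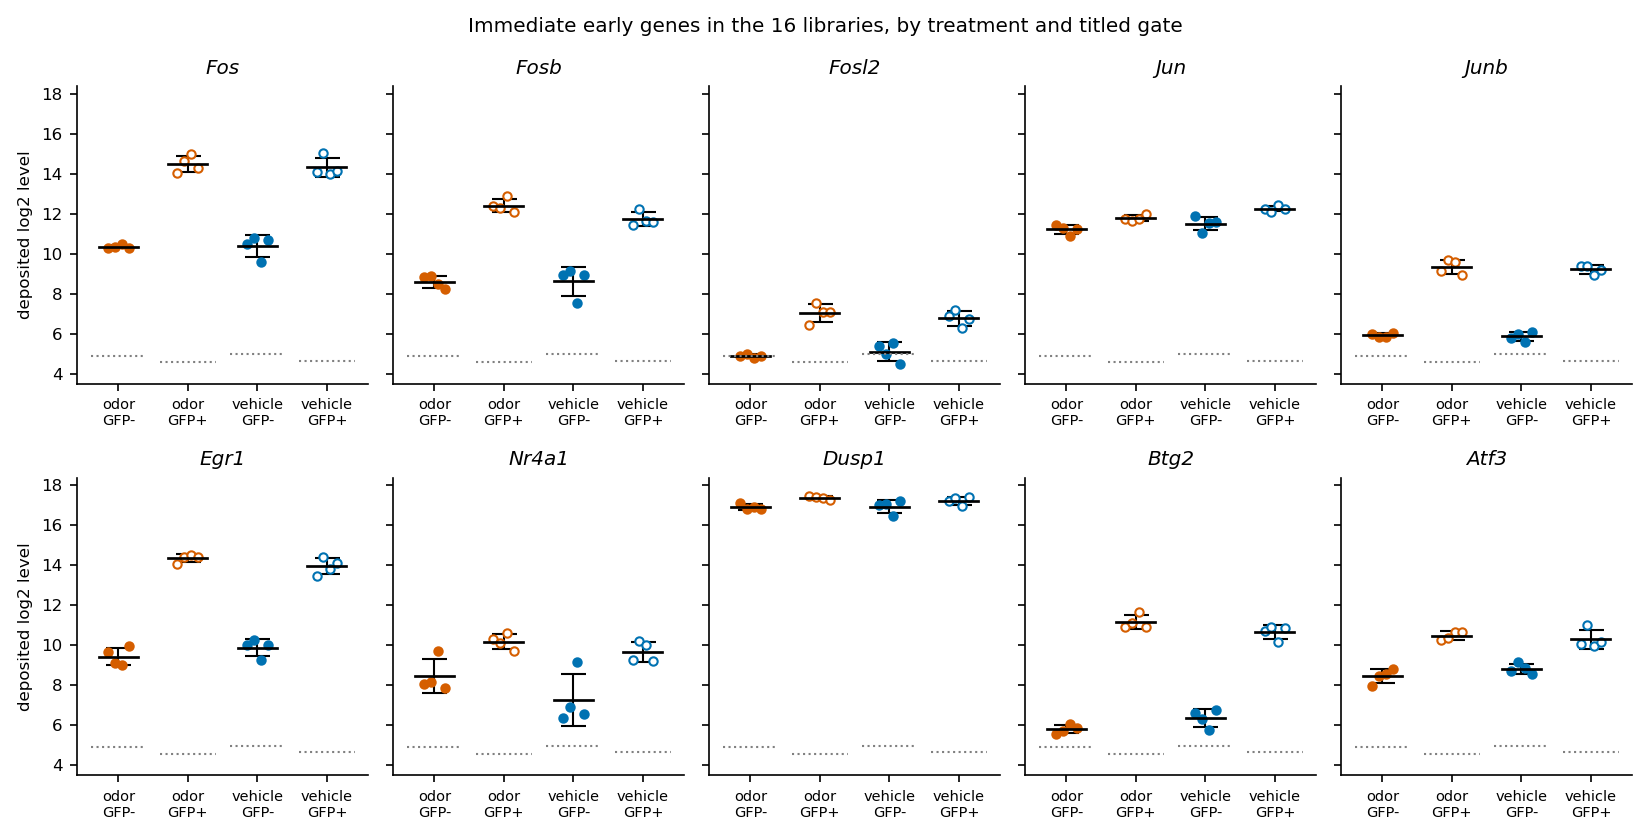
Deposited log2 level of each gene (vertical axis) in the 16 libraries, by treatment and titled gate (horizontal axis); points are libraries, bars the mean ± SD (n = 4), and dotted lines the highest background guide in the group, the 95th percentile of 321 vomeronasal genes, which are not expected in this tissue. For 8 of the 10 genes the libraries titled GFP- lie below every library titled GFP+ of the same treatment in both treatments; the exceptions are Nr4a1 with odor and Dusp1 with vehicle.

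Fos encodes the founding member of the Fos family, which pairs with Jun proteins to form the AP-1 transcription factor. Its levels were 10.30, 10.36, 10.47 and 10.29 in odor titled GFP- libraries, against 14.03, 14.66, 14.98 and 14.30 in odor titled GFP+ libraries. They were 10.51, 10.77, 9.59 and 10.67 in vehicle titled GFP- libraries, against 14.08, 15.05, 14 and 14.15 in vehicle titled GFP+ libraries. The gates were apart by more than 3 log2 units in every pool, and the highest single value was that of vehicle titled GFP+ replicate 2. The gate difference was -4.14 ± 0.34 in odor pools (SD, n = 4; limma adjusted p = 1.3e-07), which is 17.7-fold lower, and -3.94 ± 0.48 in vehicle pools (n = 4; limma adjusted p = 2.08e-07), which is 15.3-fold lower.

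Fosb, a close relative of Fos that is known for its long-lived splice form in neurons, had levels of 8.83, 8.86, 8.46 and 8.22 in odor titled GFP- libraries, against 12.39, 12.30, 12.88 and 12.08 in odor titled GFP+ libraries. With vehicle it had 8.92, 9.11, 7.54 and 8.93 in libraries titled GFP-, against 11.44, 12.24, 11.66 and 11.59 in libraries titled GFP+. Replicate 3 was the lowest vehicle library titled GFP- for Fosb and also for Fos. Its gate difference was -3.83 ± 0.44 in odor pools (SD, n = 4; limma adjusted p = 1.69e-06) and -3.11 ± 0.72 in vehicle pools (limma adjusted p = 8.89e-06). These are 14.2-fold and 8.6-fold lower levels.

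Fosl2 encodes Fra-2, a Fos-family partner of Jun that lacks a strong activation domain, and it lay close to background in the libraries titled GFP-. Its levels were 4.88, 4.98, 4.80 and 4.88 in odor titled GFP- libraries, against 6.43, 7.51, 7.10 and 7.08 in odor titled GFP+ libraries. With vehicle they were 5.40, 4.98, 5.54 and 4.49 in libraries titled GFP-, against 6.89, 7.18, 6.27 and 6.74 in libraries titled GFP+. The odor titled GFP- mean of 4.89 lay below the background guide of 4.90 (the highest, over that group's libraries, of the 95th percentile of 321 vomeronasal genes). Its difference there is thus a bound, at least 4.35-fold lower (limma adjusted p = 0.000116). In vehicle pools the gate difference was -1.67 ± 0.72 (SD, n = 4; limma adjusted p = 0.000792).

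The Jun proteins are the obligate partners of Fos in AP-1, and the 2 among these 10 genes differed widely in size of effect. Junb had levels of 5.96, 5.84, 5.83 and 6.02 in odor titled GFP- libraries, against 9.11, 9.70, 9.58 and 8.94 in odor titled GFP+ libraries. In vehicle libraries Junb had 5.80, 5.96, 5.58 and 6.08 when titled GFP-, against 9.37, 9.37, 8.92 and 9.21 when titled GFP+. Its gate difference was nearly the same in both treatments, -3.42 ± 0.46 in odor pools (SD, n = 4; limma adjusted p = 2.09e-07) and -3.37 ± 0.18 in vehicle pools (limma adjusted p = 2.68e-07). The titled GFP- means of Junb lay 1.01 log2 units (odor) and 0.89 (vehicle) above the background guide.

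Jun itself was well above the background guide in both gates. It had 11.46, 11.28, 10.91 and 11.26 in odor titled GFP- libraries, against 11.75, 11.66, 11.73 and 12.00 in odor titled GFP+ libraries. With vehicle it had 11.87, 11.04, 11.56 and 11.58 in libraries titled GFP-, against 12.24, 12.11, 12.44 and 12.25 in libraries titled GFP+. The groups did not overlap, but the gap was narrow. The gate difference was -0.56 ± 0.26 in odor pools (SD, n = 4; limma adjusted p = 0.025), 1.5-fold lower, and -0.75 ± 0.30 in vehicle pools (limma adjusted p = 0.00573), 1.7-fold lower. In odor pools Jun missed the threshold without odor pool 2 (limma adjusted p = 0.0503), pool 3 (0.117) or pool 4 (0.0956), and with libraries centred on their medians (0.226).

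Egr1 encodes a zinc finger transcription factor that is induced by growth factors and by synaptic activity. Its levels were 9.66, 9.13, 9.0 and 9.95 in odor titled GFP- libraries, against 14.06, 14.44, 14.52 and 14.40 in odor titled GFP+ libraries. With vehicle they were 9.99, 10.24, 9.25 and 10.01 in libraries titled GFP-, against 13.48, 14.40, 13.83 and 14.11 in libraries titled GFP+. Egr1 had the second largest gate difference of the 10 genes in odor pools, -4.92 ± 0.58 (SD, n = 4; limma adjusted p = 1.23e-07), a 30.2-fold lower level. In vehicle pools it was -4.08 ± 0.45 (limma adjusted p = 4.93e-07), 17-fold lower.

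Nr4a1, an orphan nuclear receptor induced by calcium and cAMP, had the widest spread between pools of the 10. It had 8.05, 8.18, 9.73 and 7.85 in odor titled GFP- libraries, against 10.30, 10.11, 10.59 and 9.73 in odor titled GFP+ libraries. With vehicle it had 6.35, 6.91, 9.18 and 6.56 in libraries titled GFP-, against 9.24, 10.19, 10.03 and 9.19 in libraries titled GFP+. Replicate 3 was the highest library titled GFP- in both treatments, and with odor it reached the lowest library titled GFP+. The gate difference was accordingly -0.86 and -0.85 in odor pool 3 and vehicle pool 3, while the other 6 pools lay between -3.28 and -1.88. The means were -1.73 ± 0.60 in odor pools (SD, n = 4; limma adjusted p = 0.00574) and -2.41 ± 1.08 in vehicle pools (limma adjusted p = 0.000675).

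Btg2, an antiproliferative member of the BTG and TOB family that is induced by p53 and by growth factors, had the largest gate difference. Its levels were 5.57, 5.71, 6.06 and 5.87 in odor titled GFP- libraries, against 10.93, 11.09, 11.66 and 10.91 in odor titled GFP+ libraries. With vehicle they were 6.63, 6.29, 5.75 and 6.76 in libraries titled GFP-, against 10.70, 10.93, 10.18 and 10.85 in libraries titled GFP+. The pools of a treatment lay close together, with a gate difference of -5.34 ± 0.24 in odor pools (SD, n = 4; limma adjusted p = 6.51e-09) and -4.31 ± 0.28 in vehicle pools (limma adjusted p = 2.35e-08). These are 40.6-fold and 19.8-fold lower levels. The titled GFP- means of Btg2 lay only 0.90 log2 units (odor) and 1.39 (vehicle) above the background guide.

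Atf3, a stress-induced factor of the ATF and CREB family, had 7.98, 8.47, 8.57 and 8.80 in odor titled GFP- libraries, against 10.26, 10.35, 10.67 and 10.66 in odor titled GFP+ libraries. With vehicle it had 8.72, 9.17, 8.86 and 8.58 in libraries titled GFP-, against 10.08, 11.01, 9.98 and 10.16 in libraries titled GFP+. The gates did not overlap in either treatment. The gate difference was -2.03 ± 0.20 in odor pools (SD, n = 4; limma adjusted p = 2.92e-06), 4.1-fold lower, and -1.48 ± 0.31 in vehicle pools (limma adjusted p = 3.57e-05), 2.8-fold lower.

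Dusp1 encodes the phosphatase that switches off the MAP kinases which induce these genes. Its levels were 17.11, 16.84, 16.91 and 16.80 in odor titled GFP- libraries, against 17.47, 17.40, 17.38 and 17.25 in odor titled GFP+ libraries. In vehicle libraries they were 17.02, 17.08, 16.46 and 17.23 when titled GFP-, against 17.24, 17.35, 16.96 and 17.40 when titled GFP+. The vehicle groups overlapped, and all values lay near the top of the array's range, where ratios can be compressed. The gate difference was -0.46 ± 0.08 in odor pools (SD, n = 4; limma adjusted p = 0.0165), and in vehicle pools it was -0.29 ± 0.14 and did not pass (limma adjusted p = 0.115). In odor pools Dusp1 missed the threshold without odor pool 2 (limma adjusted p = 0.0757) or pool 3 (0.0617), without the pool in the model (0.065) and with libraries centred on their medians (0.392).

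**Figure D2:**
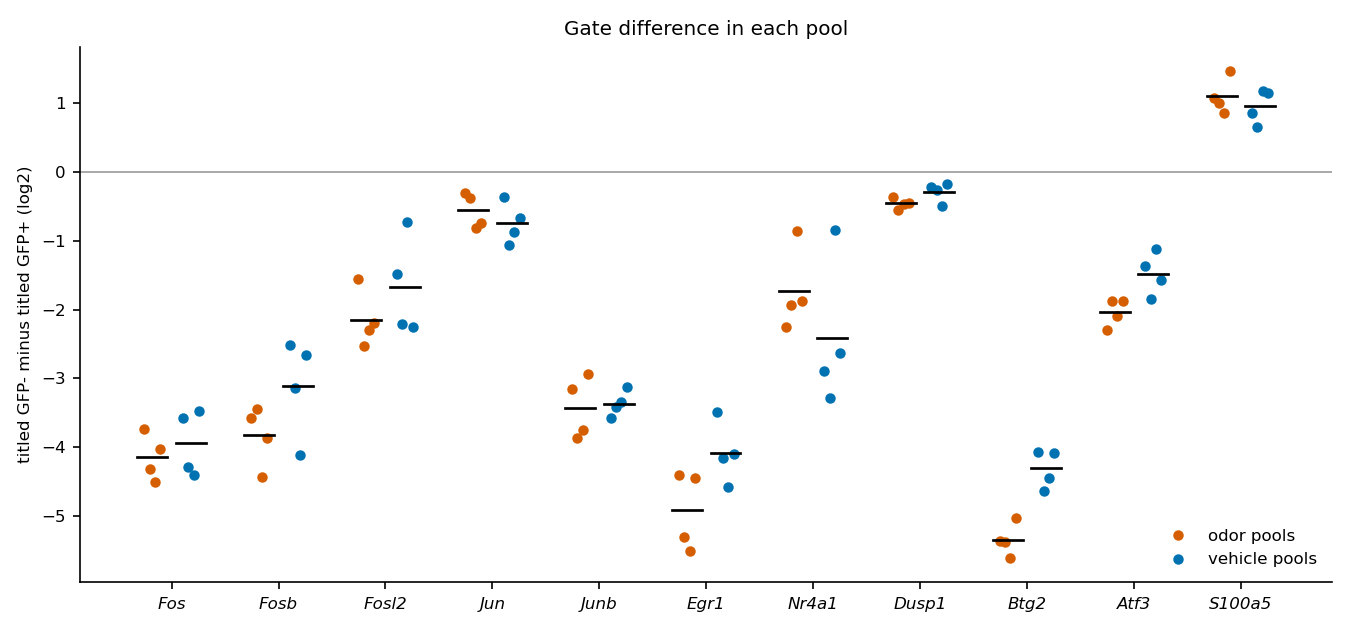
Gate difference, the log2 level in the library titled GFP- minus that in the library titled GFP+ (vertical axis), of the 10 immediate early genes and S100a5 (horizontal axis); each point is 1 pool, and black lines are the means of 4 odor or 4 vehicle pools. All points of the immediate early genes lie below 0, and all 8 points of S100a5 lie above it, between 0.65 and 1.46.

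In odor pools the order of the gate differences, largest first, was Btg2, Egr1, Fos, Fosb, Junb, Atf3, Nr4a1, Jun and Dusp1, without Fosl2, for which only a bound was measured there. The last place, that of Dusp1, is open to compression near the top of the array's range. In vehicle pools Btg2, Egr1, Fos, Junb and Fosb led, followed by Nr4a1, Fosl2, Atf3, Jun and Dusp1. Neighbours in this order were apart by more than the larger of their SDs over pools in 3 places in odor pools: between Egr1 and Fos, between Junb and Atf3 and between Nr4a1 and Jun. In vehicle pools the 3 such places were between Fos and Junb, between Atf3 and Jun and between Jun and Dusp1. All other neighbours were closer than that spread. Nonmember genes with the most similar profile over the 16 libraries, by root mean square difference from the median profile of the 10, were Agpat2 (0.208 log2 units), H2-D1 (0.261), Chst15 (0.266), Rbpms (0.268) and Srgn (0.269). The median of all other genes was 1.51. Agpat2, an enzyme of triglyceride synthesis, had gate differences of -3.10 in odor pools and -2.77 in vehicle pools. Among the 10 themselves Junb lay closest to that profile (0.36) and Dusp1 farthest (1.26).

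In some libraries most of the genes deviated from their group mean on the same side; shifts of the whole library were not removed from these values. In vehicle titled GFP+ replicate 2, 9 of the 10 were above their group mean, by a median of 0.43 over the 10, and the exception was Jun. In odor titled GFP+ replicate 3, 9 were again above, with a median of 0.21, and Jun was again the exception. In vehicle titled GFP+ replicate 3, 8 were below, with a median of -0.29. In vehicle titled GFP- replicate 3 the median was -0.38, with Fosb 1.08 below its mean and Nr4a1 1.93 above it.

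Bourgeonal against filtered air was compared in 3 ways that share libraries: as the change of the gate difference, within the libraries titled GFP- and within those titled GFP+. None of the 10 genes passed in any of them after adjustment over all genes (limma). For the change of the gate difference, 0% of all genes passed, the smallest adjusted p was 0.172, and 1109 genes had an unadjusted p under 0.05 (2.79% of all genes higher and 2.89% lower). In these pools 3 of the 10 genes had an unadjusted limma p under 0.05, all with a more negative gate difference in odor pools. With the replicate number as a block 5 did, Fosb, Egr1, Btg2 and Atf3 more negative and Nr4a1 less negative (3.35% of all genes lower and 3.10% higher), and again none passed after adjustment (smallest of the 10, limma adjusted p = 0.751). Over the 10, 8 changes were below 0 with a median of -0.34, while 46.9% of all genes were below 0 with a median of 0.021.

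Btg2 had the largest change of the 10 with all pools included, and its 4 odor pools did not overlap its vehicle pools. Its gate differences were -5.36, -5.38, -5.61 and -5.03 in odor pools, against -4.07, -4.64, -4.44 and -4.08 in vehicle pools. The change was -1.04 ± 0.20 (SE; limma unadjusted p = 0.000417, adjusted p = 0.774). Within the libraries titled GFP- Btg2 had an odor minus vehicle difference of -0.56 (95% interval -1.05 to -0.06), and within those titled GFP+ one of 0.48 (0.00 to 0.95), with limma adjusted p of 0.996 and 0.999.

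Atf3 was the other gene whose pools did not overlap. Its gate differences were -2.29, -1.87, -2.10 and -1.87 in odor pools, against -1.37, -1.85, -1.12 and -1.57 in vehicle pools. The change was -0.56 ± 0.20 (SE; limma unadjusted p = 0.0208, adjusted p = 0.823). Such separation with odor lower was seen in 1.6% of all genes and with odor higher in 1.89% (exact permutation test, p = 0.0286, the lowest possible with 70 assignments). The count depended on vehicle pool 3: without it 6 of the 10 separated, Fosb, Egr1, Dusp1, Btg2 and Atf3 lower with odor and Nr4a1 higher, against 7.54% of all genes in either direction.

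Egr1 was the third with a small unadjusted p. Its gate differences were -4.40, -5.30, -5.51 and -4.44 in odor pools, against -3.49, -4.16, -4.58 and -4.10 in vehicle pools. Vehicle pool 3 overlapped the odor pools. The change was -0.83 ± 0.32 (SE; limma unadjusted p = 0.0247, adjusted p = 0.827). The changes of the other 7 genes ran between -0.72 for Fosb and 0.69 for Nr4a1, with 95% intervals that included 0 without the replicate block. That of Nr4a1 moved with single pools: it was 1.21 without vehicle pool 3, a larger size than that of Btg2 with any 1 pool left out (-1.15 to -0.95), and 0.40 without odor pool 3 or vehicle pool 2.

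Nr4a1 differed most between treatments in the libraries titled GFP-. By number, its odor minus vehicle differences there were 1.69, 1.28, 0.56 and 1.29, so odor was higher in 4 of 4. The groups nevertheless overlapped, because vehicle replicate 3 stood at 9.18. The mean difference was 1.2 ± 0.59 (SE; 95% interval -0.10 to 2.51; limma adjusted p = 0.996), and with the replicate number as a block the limma adjusted p was 0.626 (unadjusted p = 0.000305). Without vehicle replicate 3 the difference was 1.85, and without odor replicate 3 it was 0.78. In the libraries titled GFP- 0% of all genes passed, the smallest adjusted p was 0.816, and 869 genes had an unadjusted p under 0.05 (2.34% of all genes higher and 2.11% lower). Of the 10 genes 1, Btg2, did so (limma unadjusted p = 0.0301, lower with odor), and with the replicate block 2 did, Btg2 and Nr4a1 (2.66% of all genes lower and 2.81% higher).

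In the libraries titled GFP+ 9 of the 10 genes had a higher mean with odor and Jun a lower one, against 51.1% of all genes below 0. Fosb had the largest difference, with odor values of 12.39, 12.30, 12.88 and 12.08, against vehicle values of 11.44, 12.24, 11.66 and 11.59. It was higher with odor by 0.68 ± 0.22 (SE; limma unadjusted p = 0.00918, adjusted p = 0.999). Jun was lower with odor by a log2 difference of -0.47 ± 0.15 (SE; limma unadjusted p = 0.00746, adjusted p = 0.999), and its 4 odor libraries all lay below its 4 vehicle libraries, as in 1.24% of all genes. The share of all genes that passed was 0.0103%, 2 genes, both lower with odor. An unadjusted limma p under 0.05 was found for 827 genes (2.25% of all genes higher and 1.99% lower) and for 3 of the 10, Fosb and Btg2 higher and Jun lower. With the replicate block it was found for 4, Fosb, Egr1 and Nr4a1 higher and Jun lower (3.15% of all genes higher and 2.84% lower).

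**Figure D3:**
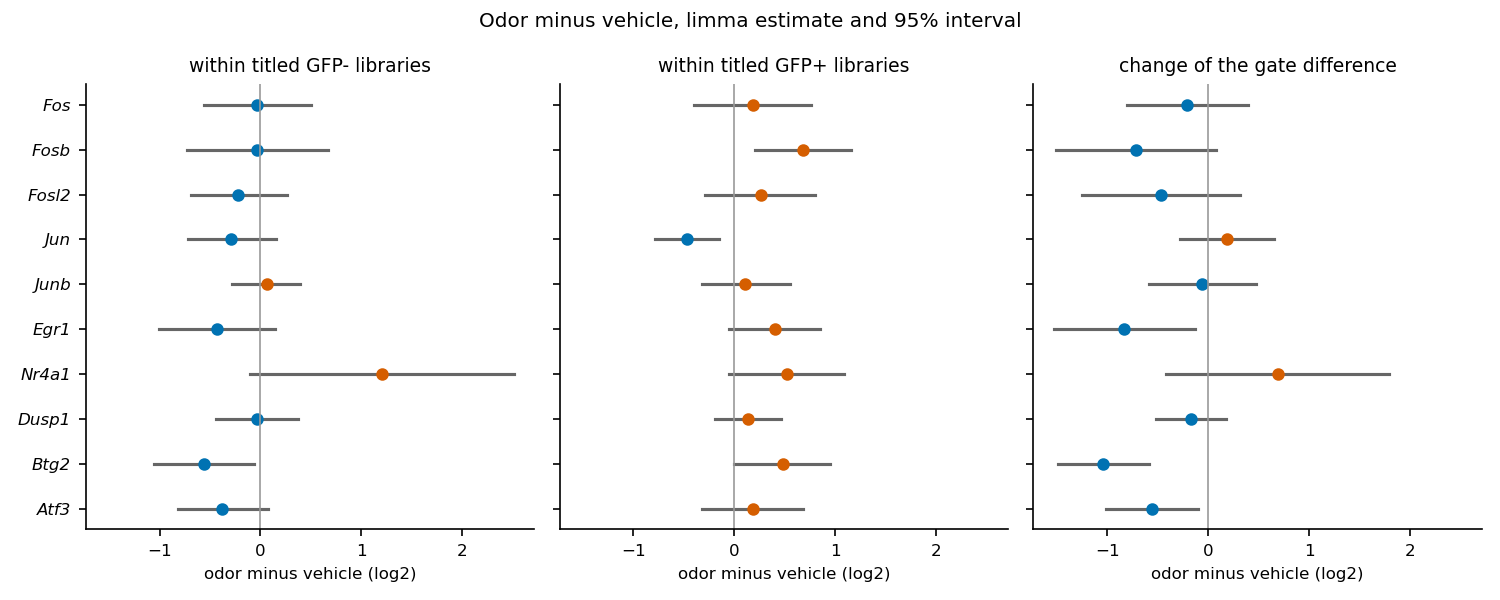
Odor minus vehicle for the 10 genes (log2, horizontal axis), as limma estimates with 95% intervals, within libraries titled GFP-, within libraries titled GFP+ and for the gate difference; orange points are above 0 and blue points below 0. Most intervals include 0, the widest is that of Nr4a1 in libraries titled GFP- (-0.10 to 2.51), and none of these results passed after adjustment.

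Relatives of the 10 genes were read for comparison, with list members counted as lower or higher where the limma adjusted p was under 0.05. Of 9 other AP-1 genes measured, none was lower in either treatment: Fosl1 had a gate difference of -0.57 in odor pools and -0.32 in vehicle pools, Jund -0.08 and 0.00, and Batf -0.28 in odor pools, without passing. Batf3 alone was called higher, in odor pools, with both gates below the background guide. The list median was -0.08 in both treatments. Of 5 other Egr and Nr4a genes, by contrast, 4 were lower in both treatments. Egr2, a zinc finger factor related to Egr1, had a gate difference of -7.47 in odor pools (limma adjusted p = 7.98e-08) and -7.13 in vehicle pools (1.17e-07). The titled GFP- means of Egr2, 5.56 (odor) and 5.68 (vehicle), lay close to the background guides of 4.9 and 4.97. Egr3 had -1.63 and -0.89, with titled GFP- means of 5.2 and 5.46, also close to the guides. Egr4 was below the background guide in every group. Nr4a2 and Nr4a3, the receptors related to Nr4a1, fell below the guide in libraries titled GFP-, so that Nr4a2 was at least 33.6-fold lower in odor pools and at least 16.6-fold lower in vehicle pools. The bounds for Nr4a3 were 14.1-fold in odor pools and 6.4-fold in vehicle pools.

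Of 10 other dual-specificity phosphatases 4 were lower in odor pools and 2 in vehicle pools, with list medians of -0.05 and -0.13 (0 in both with genes near background at their bound). Dusp6, which acts on ERK, had -1.73 in odor pools and -1.82 in vehicle pools. Dusp4 passed in both treatments but lay below the background guide in libraries titled GFP-. Dusp2 passed in odor pools but lay below the guide in all groups. Dusp5, at 0.02 and 0.16, did not pass, nor did Dusp8, at 0.19 and 0.14. Of 4 other BTG and TOB genes 1 was lower in each treatment, Btg1 at -1.2 and -1.18, while Tob1 (-0.07 and -0.23) and Btg4 did not pass.

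Of 33 further immediate early genes 21 were lower and 1 higher in odor pools, and 22 were lower and 0 higher in vehicle pools, with 20 lower in both. Their median gate difference was -1.13 in odor pools and -1.01 in vehicle pools (-1.05 and -0.92 with genes near background at their bound). Plk2, a kinase induced by synaptic activity, was at least 50.4-fold lower in odor pools, the largest fall there, and at least 30.5-fold lower in vehicle pools. Ier3, a survival factor, was at least 17.2-fold and 12.0-fold lower. Ier2, at -0.29 in both treatments, and Ier5, at -0.22 and 0.26, did not pass. Ppp1r15a, a phosphatase subunit of the stress response, was the 1 gene higher in odor pools (0.39, limma adjusted p = 0.0404). Maff (0.49 and 0.40) did not pass.

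Genes used as marks of activity in brain neurons showed no common direction. Of 10 measured, 4 were lower and 1 higher in each treatment, with medians of -0.13 in odor pools and -0.07 in vehicle pools (0 in both with genes near background at their bound). Arc, a synaptic regulator, lay below the background guide in libraries titled GFP- and was at least 1.51-fold lower in odor pools (limma adjusted p = 0.00493) and at least 1.28-fold lower in vehicle pools (0.00515). Npas4, a factor induced by calcium in neurons, was below the guide in every group. Homer1, at 0.11 and 0.29, did not pass. Nptx2, a secreted synaptic pentraxin, was higher by 0.52 in odor pools (limma adjusted p = 0.017) and by 0.79 in vehicle pools (0.00143), while Rasgrp1 was lower and below the guide in libraries titled GFP-. In contrast, all 5 activity-linked genes of olfactory sensory neurons were higher in both treatments, with S100a5, whose side set the sign, among them. Kirrel2, a cell adhesion molecule of olfactory axons, was at 1.00 and 1.11, Pcdh10 at 1.66 and 1.08, and Lrrc3b at 1.66 and 1.71.

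Of 13 genes for the kinases and factors upstream, 1 was lower and 1 higher in each treatment. Srf was at 0.01 in odor pools and -0.08 in vehicle pools. Elk1, an SRF partner, was at -0.36 without passing in odor pools and 0.60 in vehicle pools (limma adjusted p = 0.0136). Mapk14, the stress kinase p38 alpha, was lower in both, at -0.51 and -0.45. Camk4, a calcium-dependent kinase, was called higher in odor pools (limma adjusted p = 0.00363), with its titled GFP+ mean below the background guide. Of 8 heat shock genes 2 were lower in odor pools and 4 in vehicle pools, with Hspa1a at -1.38 and -1.29 and Hspa1b at -1.43 and -1.25. These 2 genes are near-identical copies whose probes can bind either RNA. Hsp90aa1, at 0.12 and -0.11, did not pass. None of the genes on these lists passed in any of the 3 odor comparisons.

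Markers of several other cell types, though not of all those listed, were lower on the same side as the 10 genes. All 13 neutrophil markers were lower in libraries titled GFP- in both treatments, with median gate differences of -6.94 in odor pools and -6.41 in vehicle pools when genes below background stand at their bound. Their summed log2 level was 8.26 to 8.79 in odor titled GFP- and 18.5 to 18.8 in odor titled GFP+ libraries, and 7.84 to 9.10 in vehicle titled GFP- and 17.69 to 18.85 in vehicle titled GFP+ libraries. In both groups titled GFP- 8 of the 13, including S100a8 and Retnlg, were below the background guide. For macrophage and dendritic cells 7 of 9 markers were lower in each treatment, with summed levels of 7.97 to 9.06 in odor titled GFP- and 13.64 to 14.86 in odor titled GFP+ libraries, and 7.87 to 8.58 in vehicle titled GFP- and 13.31 to 15.03 in vehicle titled GFP+ libraries. Lyz2 weighed most in these sums, with titled GFP+ means of 14.2 (odor) and 13.91 (vehicle). The next highest, Fcgr3, had 10.15 and 9.66. With genes near background at their bound, the median of this list was only -1.25 in odor pools and -1.44 in vehicle pools. The part of neutrophils, macrophages and dendritic cells in the gate differences of the immediate early genes was not tested.

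All 8 microvillar cell markers were lower in both treatments, with summed levels of 7.54 to 8.15 in odor titled GFP- and 11.45 to 12.49 in odor titled GFP+ libraries, and 7.45 to 7.84 in vehicle titled GFP- and 11.05 to 12.03 in vehicle titled GFP+ libraries. Of 8 sustentacular cell markers 6 were lower in each treatment, of 10 immature neuron markers 7 in odor pools and 6 in vehicle pools, and all 5 progenitor markers measured were lower in both. Chat, of the microvillar list, and Cdk1 and Neurog1, of the progenitor list, passed with means below the background guide in every group. Gng8, of immature neurons, had gate differences of -4.74 in odor pools and -4.72 in vehicle pools. Of 8 lymphocyte markers 6 were lower in odor pools and 5 in vehicle pools, and both erythroid markers were lower in each treatment. Of the 8 lymphocyte markers 7 were below the background guide in both groups titled GFP-, and 2 were below it in all 4 groups. With genes near background at their bound, the lymphocyte medians were -0.41 in odor pools and -0.21 in vehicle pools. Few markers of ensheathing glia (2 of 4 in odor pools, 1 in vehicle pools), stroma (1 of 6 in each), endothelium (2 of 6 in odor pools, 0 in vehicle pools) and horizontal basal cells (1 of 4 in odor pools, 0 in vehicle pools) were lower, and those of the last 2 lists were below the background guide in every group. Of 12 mature neuron markers 1, the channel Ano2, was higher in each treatment and 0 were lower.

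**Figure D4:**
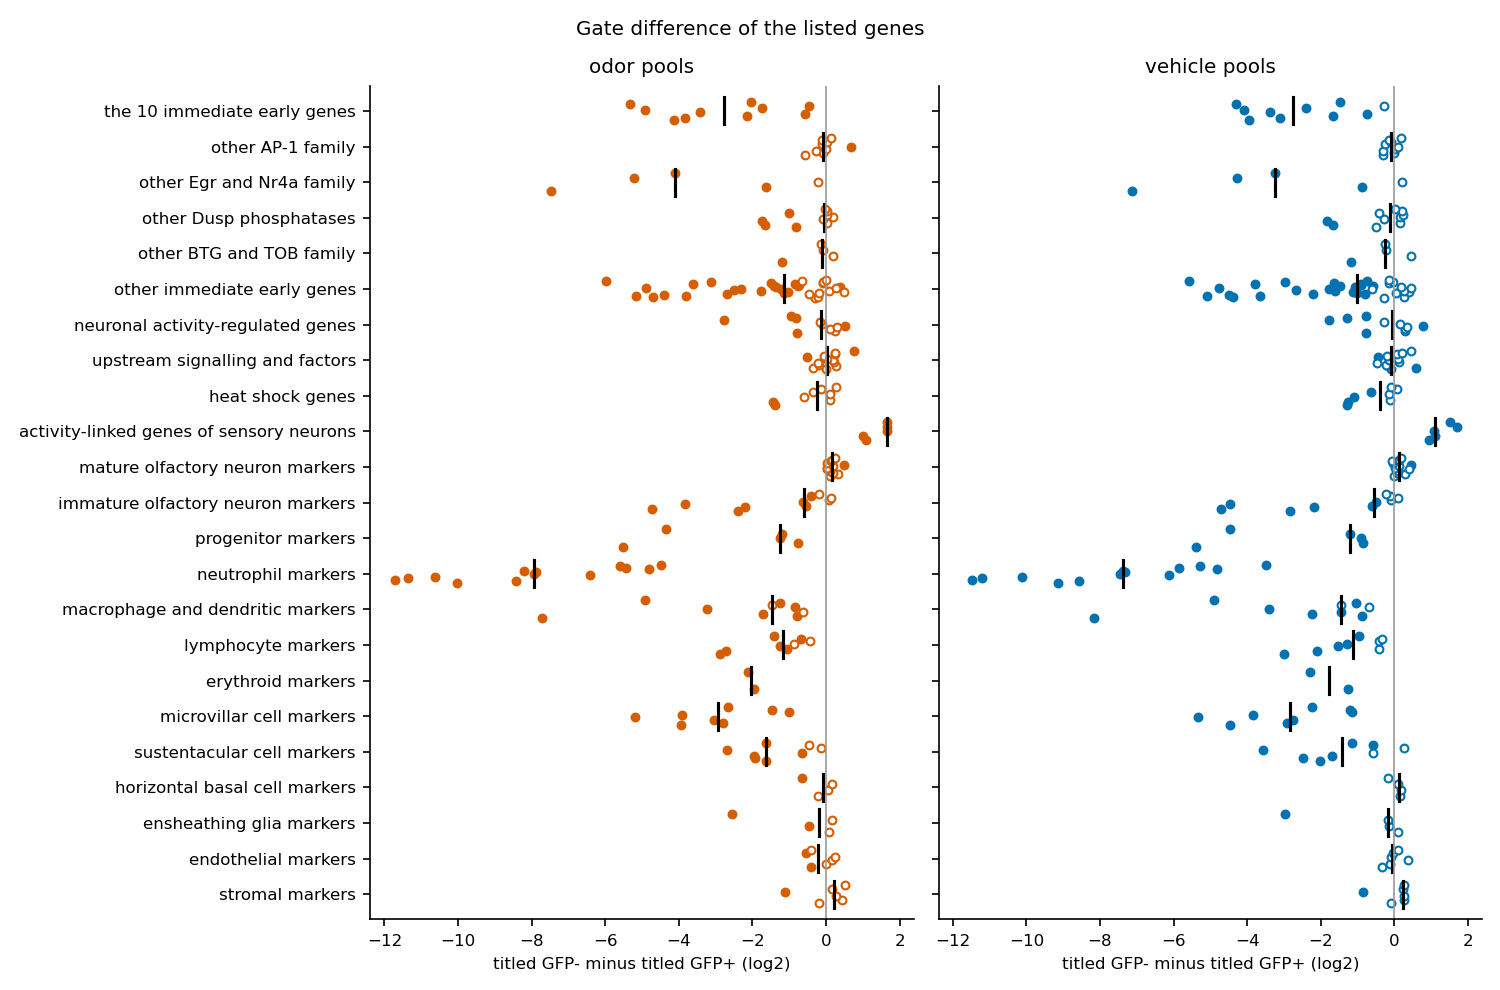
Gate difference (log2, horizontal axis) of every measured gene of each list (vertical axis) in odor pools and in vehicle pools; points are genes, filled where the limma adjusted p was under 0.05, and black ticks are list medians, with genes near background at their fitted value and not at their bound. The 10 immediate early genes (medians -2.78 and -2.76) lie on the same side as the neutrophil markers (-7.93 and -7.37 as fitted, -6.94 and -6.41 at the bounds), and the activity-linked genes of sensory neurons lie on the other side (1.66 and 1.11).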

How the data were processed

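The values are the log2 expression levels that the authors deposited, for which the submitters' processing notes name Affymetrix Expression Console. The sources used here do not give its version, summarisation or build. Of 28846 probe sets, 94 and 6546 controls and 2634 without a gene were left out. Where a gene had several probe sets, that with the highest mean was kept, which left 19505 genes. The log base was read from the spike-ins, whose means ran from 8.60 (bioB) to 13.31 (cre).

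Gate differences came from 1 limma fit (3.58.1, R 4.3.3; lmFit, eBayes) of 16 libraries with the pool as a block. The pool was taken as shared by both titles of a number, from the count of mice. Odor was compared within a titled gate on 8 libraries without a block. Tests were two-sided, and p-values were adjusted by Benjamini-Hochberg across all genes. The scripts were tested on simulated data. Named are the 10 genes, S100a5, Omp, the 5 most similar profiles and, per list, the leading listed genes and the largest changes; Retnlg was named after its values were seen, as were Nr4a2, Nr4a3, Egr4, Batf3, Dusp6, Ppp1r15a, Nptx2 and Gng8 where they fall outside this. The genes and lists were chosen with earlier results of these data known. Libraries of the same number correlated, as deviations from group means, at 0.157 to 0.210 between treatments in titled GFP+ libraries, so that the fit with the number as a block is given beside the unblocked one, and at 0.088 to 0.161 in titled GFP- libraries.

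Promoters came from RefSeq (GRCm38.p6). Alternatives were other scalings, filters, variance models, blocks and left-out pools.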

Additional observations from a re-analysis of the deposited data

Results flagged for a closer look

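Dixon's test looked for a value that stood apart, by the gap to its nearest neighbour over the group's range. Among 66 groups of 4 values, either library levels or gate differences of pools from the same libraries, 2 such values were found. Chance alone gives about 5 percent. The Fos level of vehicle titled GFP+ replicate 2 was 15.05, above the other 3 at 14 to 14.15, with a ratio of 0.86. The Fosb level of vehicle titled GFP- replicate 3 was 7.54, below the other 3 at 8.92 to 9.11, with a ratio of 0.879.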

How the results depend on the processing

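The count of immediate early genes past the threshold stayed at 8 to 10 for the gate difference in odor pools and at 9 or 10 in vehicle pools, and was 0 for the 3 odor comparisons, under every alternative run. Of 300 gate results of single genes, 288 kept direction and call, 10 missed the threshold (Jun 5 and Dusp1 5, all in odor pools) and 1, Dusp1 in vehicle pools with an intensity trend in the variance, newly passed (limma adjusted p = 0.00269). Dusp1 in vehicle pools turned to 0.06 with libraries centred on their medians. Centring moved the median of all genes to 0.455 in odor pools and 0.441 in vehicle pools. All genes past the threshold then numbered 12174 (10624 higher, 1550 lower; 3521 in the analysis above, 1526 higher and 1995 lower) and 12023 (10501 higher, 1522 lower; 3156 above, 1216 higher and 1940 lower).

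For the change of the gate difference the intensity trend gave 2 genes (0 above). In titled GFP+ libraries, 2 genes passed above, 1 with the replicate block or quantile normalization, 0 with dim genes left out, 0 without pool 3 of both treatments (2 with the replicate block), and 0 to 2 with each replicate left out. The replicate block gave 0 of the 10 genes in each odor comparison, so it changed no call of theirs there. The count of the 10 genes whose odor and vehicle gate differences separate, 2, was 2 to 6 with a pool left out. The 6 came without vehicle pool 3, where 7.54% of all genes separated in either direction. It was also 6 without pool 3 of both treatments, a setting chosen after seeing the data. The share of all genes was not computed there, so nothing is read from that count.

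Other signs turned for differences near 0 that did not pass in any setting. Without pool 3 of both treatments Junb had 0.06 for the change of the gate difference and, with or without the replicate block, -0.01 in titled GFP- libraries and -0.07 in titled GFP+ libraries, where Fos had -0.09. With each replicate left out, Junb ran from -0.22 to 0.09 for the change, from -0.04 to 0.13 in titled GFP- libraries and from -0.01 to 0.24 in titled GFP+ libraries. In titled GFP- libraries Fos ran from -0.30 to 0.10, Fosb from -0.39 to 0.13 and Dusp1 from -0.19 to 0.06. The cause of these shifts was not tested. Signal near background limits Fosl2, and signal near the top of the range may limit Dusp1. Compression of the Dusp1 ratio was not tested.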

Other observations

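Several families on the list of further immediate early genes were lower in the libraries titled GFP- as a whole or in part; they were singled out after their values were seen. All 3 Zfp36 genes, which code for proteins that destabilise mRNAs with AU-rich elements, were lower in both treatments. Zfp36 had gate differences of -5.16 in odor pools (limma adjusted p = 9.62e-08) and -5.09 in vehicle pools (1.19e-07), and Zfp36l2 had -4.39 and -4.50. Zfp36l1 lay below the background guide in libraries titled GFP- and was at least 11.6-fold lower in odor pools and at least 10.2-fold lower in vehicle pools. Myc, the growth regulator, was at least 6.08-fold and 5.83-fold lower, and Rgs2, which damps signalling by Gq-coupled receptors, at least 7.44-fold and 6.44-fold.

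Of the Krüppel-like factors, Klf6 had -1.13 in odor pools (limma adjusted p = 8.98e-05) and -1.01 in vehicle pools (0.000226), and Klf4 was at least 5.41-fold and 4.1-fold lower, while Klf10, at -0.20 and 0.05, did not pass. Gadd45b, a stress-induced regulator of growth arrest, had -2.50 in odor pools (limma adjusted p = 2e-05) and -2.67 in vehicle pools (1.35e-05). Per1, a clock gene that is also induced by cAMP, had 0.08 and 0.26, and Sgk1, a serum-induced kinase, had -0.07 and -0.04; neither passed. The part of immune cells in these differences was not tested.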
